A study of Mus musculus with 8 samples.

Results

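Ccl21b and Ccl21c are copies of the mouse gene for the chemokine CCL21, and their array signal was followed across 8 hearts, 4 with and 4 without Klf5 in cardiomyocytes. The members are the non-control probes whose RefSeq transcript, once its version is removed, belongs to either gene. They are 2 of 112 genes that the array's RefSeq accessions name, with 1 probe and 1 spot each (CUST_301_PI426409190 for Ccl21b and CUST_291_PI426409190 for Ccl21c), among 59709 non-control probes. The question of the study was which cardiac transcripts change once cardiomyocytes lack KLF5, a transcription factor of the Kruppel-like family. The control group holds 4 KLF5 floxed mice without Cre recombinase. The knockout group holds 4 aMHC-KLF5-/- mice, in which Cre is driven by the aMHC promoter, so the deletion is meant for cardiomyocytes and other heart cells keep the gene. Both groups carry floxed Klf5 alleles, all 8 mice are males of 8 to 12 weeks sampled at basal levels, and each array holds the total RNA of 1 whole heart. No group with Cre alone was analysed here, so Cre and the deletion cannot be told apart.

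CCL21 is a secreted chemokine that binds the receptor CCR7 on T cells and mature dendritic cells and draws them into lymphatic vessels and lymph nodes. Lymphatic endothelium and the stroma of lymphoid organs are its main sources, and it sticks to matrix sugars, which keeps it near the cells that release it. In the mouse the gene exists as several near-identical copies in a cluster on chromosome 4, so a probe for one copy can also bind transcripts of another and the signal cannot be assigned to 1 copy. The files also name another copy, Gm13304, for which the RefSeq table lists older names of the Ccl21 copies, and it is described beside the members.

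The stretch of 150 bases before the transcript start is printed to show how alike the copies are. It comes from the RefSeq promoter table of build GRCm38.p6, at chr4:42114637-42114786 on the plus strand for Gm13304, chr4:41903463-41903612 on the plus strand for Ccl21d, chr4:42773992-42774141 on the minus strand for Ccl21a and chr4:42172970-42173119 on the plus strand for Ccl21b. Ccl21c is named only. Capitals mark, in Gm13304, Ccl21d and Ccl21a alike, the 2 positions at which these 3 copies are not all the same.
Gm13304: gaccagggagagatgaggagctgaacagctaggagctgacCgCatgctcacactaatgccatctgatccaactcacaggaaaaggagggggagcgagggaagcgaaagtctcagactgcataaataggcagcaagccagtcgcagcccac
Ccl21d: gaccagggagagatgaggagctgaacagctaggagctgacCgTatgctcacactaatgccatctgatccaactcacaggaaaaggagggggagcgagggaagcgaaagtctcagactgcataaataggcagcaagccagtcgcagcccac
Ccl21a: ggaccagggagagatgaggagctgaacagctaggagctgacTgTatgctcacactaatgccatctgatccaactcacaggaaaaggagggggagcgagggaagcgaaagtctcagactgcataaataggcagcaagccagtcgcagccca
Ccl21b: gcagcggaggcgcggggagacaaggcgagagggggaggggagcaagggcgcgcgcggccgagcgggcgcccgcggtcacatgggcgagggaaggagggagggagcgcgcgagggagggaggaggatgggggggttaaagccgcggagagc

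Over the 250 bases before the start, Ccl21d differed from Gm13304 at 1 base and Gm10591, another copy, at 0. Ccl21a differed at 2 of 249 aligned bases, an identity of 99.2%. The window of Ccl21b stands apart, with 166 of 248 bases differing and a GC content of 78.7% over 300 bases against 53.7% for Gm13304. The RefSeq gene of Ccl21b spans 83706 bases and those of Ccl21c and Gm13304 span 1131 each, so the Ccl21b window was taken at the start of a much longer annotated gene, and its letters do not show how alike the transcripts are. The letters CACCC, a core of Kruppel-like factor motifs, were searched on both strands of the 300-base windows, which run 250 bases before to 50 after the start. They were absent from all 5 copies in the table and present in 57.5% of 32851 promoters. GGGCGG, a GC box, had 1 match in the Ccl21b window and 0 in the other 4, against 35.7% of all promoters with a match. With no CACCC match in these windows, no match of one motif overlapped the other, and the absence of these letters says nothing of binding by a factor.

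Arrays were similar in brightness, with a 75th percentile of intensity from 298.4 to 354.6 on control arrays and from 302 to 348.2 on knockout arrays. The number of probes well above background ran from 27806 to 31459 on control arrays and from 28103 to 43290 on knockout arrays, and the part of that difference in the values below was not tested. The barcode in each array's header starts with 1 for all controls and with 2 for all knockouts. What this code stands for was not given in sources used here. An effect of what its first part marks and one of genotype cannot be told apart. The second part of the code equals the replicate number in both groups, so same-numbered hearts share it. Klf5 was not analysed here, so the labels were not checked through it. The markers of cardiomyocytes, lymphatic endothelium, lymphocytes and other cell types in 8 lists were not analysed here either. Since whole hearts were measured, fewer cells that make CCL21 and less of its RNA per cell cannot be told apart.

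Ccl21b was bright in every heart, and its mean was lower in knockout than in control hearts by less than the control hearts differed among themselves. Its background-corrected intensity was 16321, 10384, 13123 and 14240 in control replicates 1 to 4 and 10668, 11281, 12453 and 11842 in knockout replicates 1 to 4. The raw spot was 401 to 700 times its local background in control hearts and 438 to 461 times in knockout hearts, so the signal was far from the detection limit, and no spot was saturated. For comparison between arrays, each value was put on the log2 scale relative to its array's 75th percentile, so 0 is that percentile and 1 unit is a doubling. On this scale Ccl21b was 5.61, 4.87, 5.46 and 5.52 in control hearts. It was 5.14, 5.09, 5.17 and 5.09 in knockout hearts. Control replicates 1, 3 and 4 lay above every knockout heart and control replicate 2 below every one, so the groups overlap. The means were 5.36 ± 0.33 (SD, n = 4) and 5.12 ± 0.04 (SD, n = 4). The log2 difference, knockout minus control, was -0.24 with an SE of 0.16 and a 95% interval from -0.61 to 0.13, a fold of 0.847. It did not pass the threshold of 0.05 in limma, with an adjusted p of 0.718. A two-sided exact permutation test over the 8 hearts gave p = 0.143, where the smallest p this design allows is 0.0286.

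Ccl21c gave a similar picture with a somewhat narrower spread among controls. Its intensity was 18774, 13002, 14106 and 16334 in control hearts and 12251, 12136, 12956 and 12491 in knockout hearts, so before scaling every control heart was above every knockout heart, with 13002 in the lowest control against 12956 in the highest knockout. Before scaling the same held for 279 of 27878 tested probes, or 1%, but not for Ccl21b. Relative to the array percentile it was 5.81, 5.20, 5.56 and 5.72 in control hearts and 5.34, 5.20, 5.23 and 5.17 in knockout hearts. After scaling the groups overlap through control replicate 2, whose array had the highest 75th percentile of the 8 and whose value lay between those of knockout replicates 2 and 4. The means were 5.57 ± 0.27 (SD, n = 4) and 5.23 ± 0.08 (SD, n = 4). The log2 difference was -0.34 with an SE of 0.14 and a 95% interval from -0.66 to -0.01, a fold of 0.792. The unadjusted p was 0.0424 and the adjusted p in limma 0.604, so Ccl21c was not called. The exact permutation test gave p = 0.114.

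**Figure D1:**
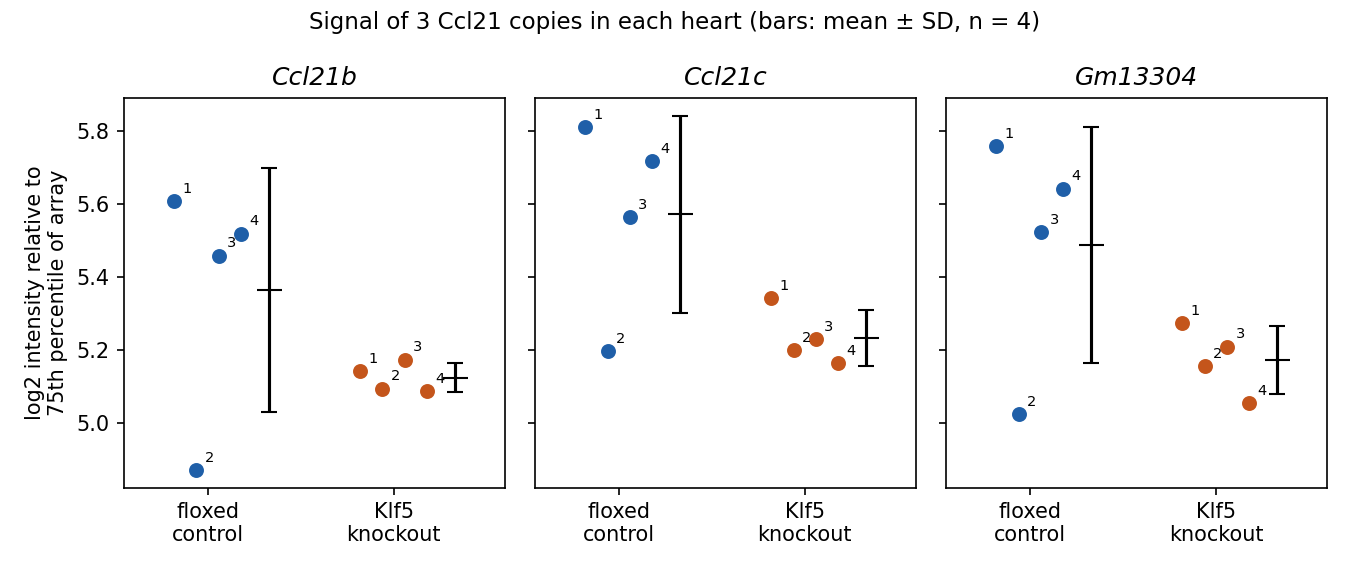
Points are single hearts, numbered by replicate, with log2 intensity relative to the array's 75th percentile on the vertical axis, and bars give the mean and SD of 4 control or 4 knockout hearts. For each copy control replicates 1, 3 and 4 sit above all knockout hearts while control replicate 2 sits among or below them, at 4.87 for Ccl21b, 5.20 for Ccl21c and 5.02 for Gm13304.

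Gm13304 had an intensity of 18114, 11542, 13727 and 15503 in control hearts and 11678, 11769, 12767 and 11566 in knockout hearts. On the relative log2 scale it was 5.76, 5.02, 5.52 and 5.64 in controls and 5.27, 5.16, 5.21 and 5.05 in knockouts. As for Ccl21b, control replicate 2 was the lowest of all 8 hearts and the other 3 controls were the highest. The log2 difference was -0.31 with an SE of 0.16 and a 95% interval from -0.68 to 0.06, and limma gave an adjusted p of 0.663. Because transcripts of the copies are nearly the same, the 3 probes may read the same RNA and are not independent measurements of a group difference.

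Averaged over Ccl21b and Ccl21c in each heart, the level was 5.47 ± 0.30 (SD, n = 4) in control hearts and 5.18 ± 0.05 (SD, n = 4) in knockout hearts, a log2 difference of -0.29. The mean of the copies ran from 5.03 in control replicate 2 to 5.71 in control replicate 1, and only from 5.13 to 5.24 over the 4 knockout hearts. No test of a group difference was made on this mean, since its members were chosen with results known.

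Control replicate 2 set much of the overlap. Without it the difference was -0.40 for Ccl21b, -0.46 for Ccl21c and -0.47 for Gm13304, and the lowest of the 3 remaining controls exceeded the highest knockout heart by 0.29, 0.22 and 0.25 in the same order. In that fit the limma adjusted p was 0.375 for Ccl21b, 0.377 for Ccl21c and 0.380 for Gm13304, so no copy was called with that heart left out. Leaving out control replicate 1 instead, the heart with the highest value of each copy, gave -0.16 for Ccl21b, -0.26 for Ccl21c and -0.22 for Gm13304. The size of the difference for Ccl21b thus moved by over 1.5 times with either of these control hearts, and nothing in the labels sets either apart from the other controls.

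**Figure D2:**
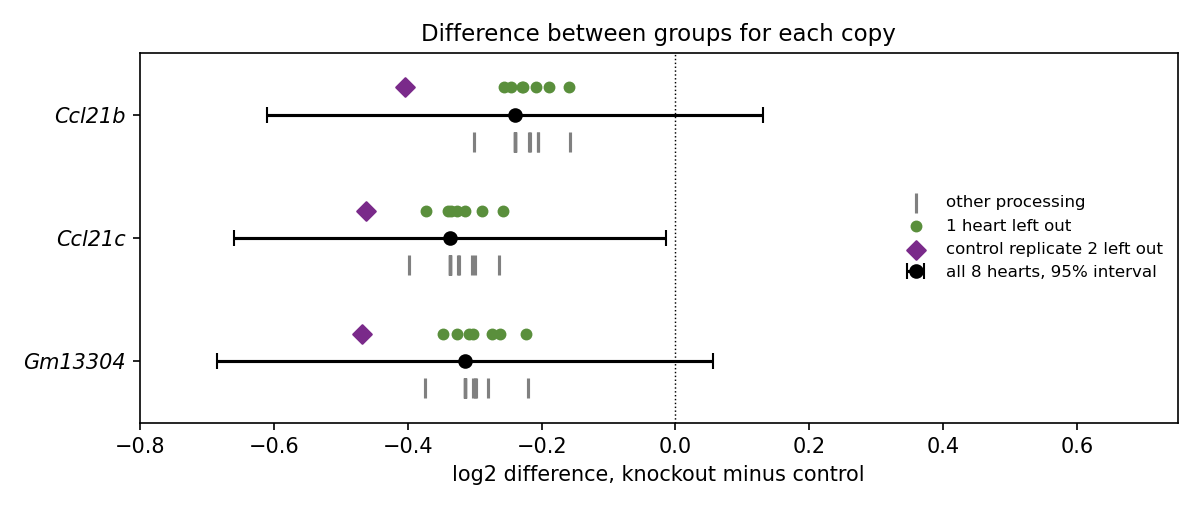
The horizontal axis is the log2 difference, knockout minus control, for each copy, with black points and bars for all 8 hearts and the 95% interval, green points and purple diamonds for fits with 1 heart left out, and grey ticks for other processing. Every estimate lies below 0, and the interval with all hearts reaches across 0 for Ccl21b and Gm13304 and ends at -0.01 for Ccl21c.

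Read against all tested probes, differences of this size were not rare. Those probes span bright and dim signals and were not matched to the copies in brightness, so the shares below do not describe bright probes alone. Of 27878 tested probes, 39 were called at an adjusted p under 0.05 in limma, or 0.14%. Of these, 37 were higher and 2 lower in knockout hearts, and 0 of the 2 members were among the 39. At an unadjusted p under 0.05, 749 probes were lower in knockout hearts, or 2.69%, and Ccl21c but not Ccl21b was among them. In 463 probes, or 1.66%, every knockout heart was below every control heart, and neither member did this after scaling. A smaller p than that of Ccl21c was found for 7.01% of tested probes, and 24.3% had a smaller p than Ccl21b. The difference was lower than that of Ccl21c in 7.96% of probes and lower than that of Ccl21b in 13% of probes, while the median over all tested probes was 0.005.

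**Figure D3:**
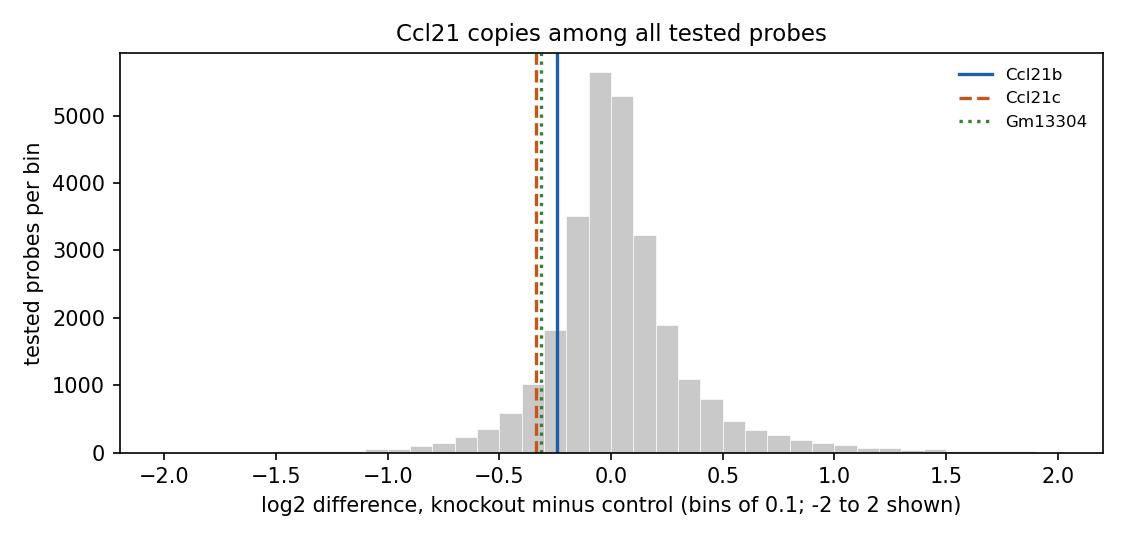
Grey bars count tested probes by log2 difference, knockout minus control, in bins of 0.1 from -2 to 2, with 99 probes beyond that range not drawn, and lines mark the 3 copies. All 3 lines fall in the left flank of the distribution and inside its central 95% range, which runs from -0.61 to 0.89.

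The hearts of the 2 groups differed in how far the copies varied. The SD of Ccl21b was 0.33 among controls and 0.04 among knockouts, a ratio of 8.22, and 1.42% of tested probes had a ratio as large. For Ccl21c the ratio was 3.53, reached by 7.57% of tested probes, and for Gm13304 it was 3.48, reached by 7.71%. Over all tested probes the median SD was 0.20 in either group, and for each copy the controls were above this median and the knockouts below it. That median covers bright and dim probes alike, so it does not say what spread is usual for probes as bright as these. These ratios describe 4 hearts against 4 and were not tested, and control replicate 2 carries most of the control spread. Among the other 3 controls the SD was 0.08 for Ccl21b and 0.12 for both Ccl21c and Gm13304.

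The probes for the copies varied together from heart to heart. Ccl21b and Ccl21c had a Pearson r of 0.940 over the 8 hearts, with a permutation p of 0.000744 over 40320 orderings, and a Spearman rho of 0.952 with a permutation p of 0.00114. Without control replicates 1 and 4, the hearts farthest from the median of Ccl21b, r was 0.849, and on deviations from the group means it was 0.952. The pairs with Gm13304 were closer still, with r = 0.973 for Ccl21b and 0.986 for Ccl21c, each with a permutation p of 7.44e-05 and 0.000112 after Benjamini-Hochberg adjustment over the 3 pairs. Spearman rho was 0.976 in both of these pairs, with a permutation p of 0.000397 and an adjusted value of 0.000595. Leaving out the same 2 hearts gave r = 0.935 and 0.959. Every pair was read on the same 8 arrays, and the probes may read the same RNA. A high r was therefore foreseeable, and these p-values do not show that separate genes vary together.

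**Figure D4:**
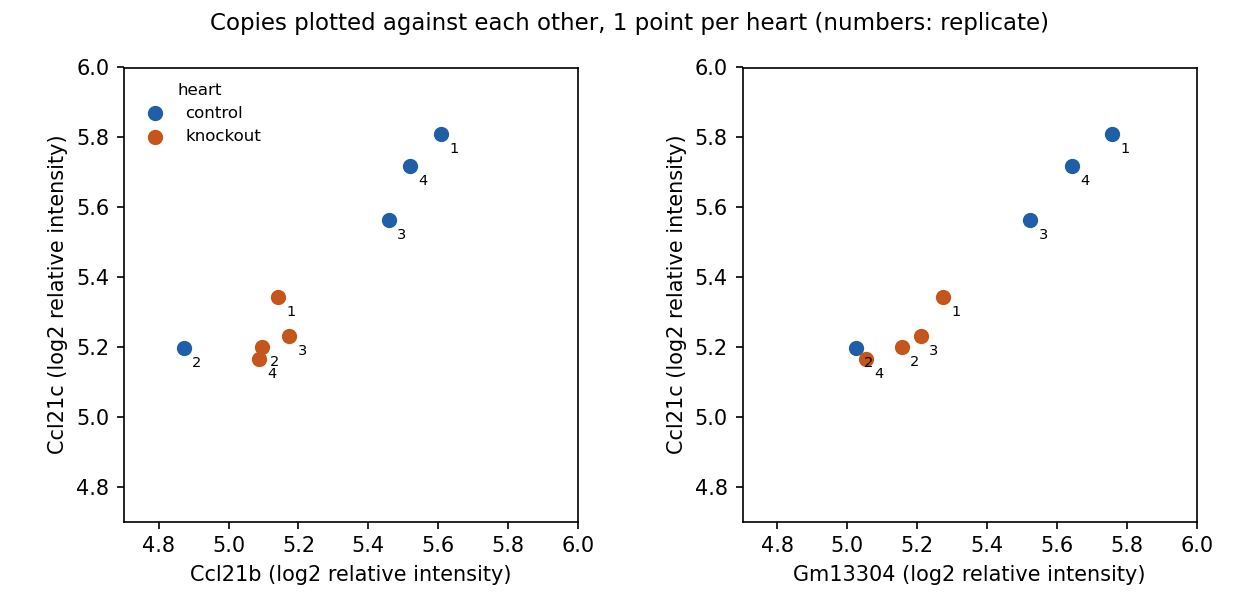
Each point is 1 heart, with log2 relative intensity of Ccl21c on the vertical axis and of Ccl21b (left) or Gm13304 (right) on the horizontal axis, and numbers give the replicate. Control replicates 1, 3 and 4 form the upper end of both plots, with Ccl21c from 5.56 to 5.81, while control replicate 2 lies with the knockout hearts, whose Ccl21c ran from 5.17 to 5.34.

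The order of hearts was nearly the same for each copy, with control replicates 1, 4 and 3 highest in that order. The group difference of Ccl21c was lower than that of Ccl21b by 0.10 on the log2 scale, which an exact permutation test of the within-heart difference did not separate from 0 (p = 0.143, adjusted 0.214 over 3 pairs). The group difference of Gm13304 was lower than that of Ccl21b by 0.07 (exact p = 0.114, adjusted 0.214). It differed from that of Ccl21c by 0.02 (exact p = 0.571). Since these probes may read the same RNA, the comparison is one between probes and does not bear on the copies as genes.

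Among 27837 tested probes compared with Ccl21c, the median r was -0.01, and the probe nearest to it was Gm13304. Gm13304 was also the nearest to Ccl21b, for which Ccl21c ranked 5, while Ccl21b ranked 7 for Ccl21c. Against the mean of the members, Gm13304 had r = 0.995, and 13 of 27836 probes had r above 0.9. These ranks are descriptions over 8 hearts that share the same arrays.

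Of 83 other tested named genes, the 5 with the pattern most like the mean of the members were H2ac18, a core histone gene (r = 0.718), the clone-named gene 4930526I15Rik (r = 0.710), Dhrsx, of the short-chain dehydrogenase family (r = 0.678), Ppp2r3d, which codes for a phosphatase subunit (r = 0.623), and Aida, which codes for an axin-binding protein (r = 0.623). H2ac18 had a permutation p of 0.0323, a rho of 0.667 with a permutation p of 0.0831, and r = 0.718 without the 2 farthest hearts. After Benjamini-Hochberg adjustment over the 83 genes all 5 stood at 0.622, so none passed. Without control replicates 1 and 4 the r of Dhrsx was 0.395 and that of Aida 0.01, so those likenesses rest on these hearts. The group difference was -0.03 for H2ac18, -0.27 for 4930526I15Rik, -0.24 for Dhrsx, -0.22 for Ppp2r3d and -0.10 for Aida, and none was called in limma.

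Of the 14 listed genes of the CCR7 axis, which holds the Ccl21 copies, Ccl19, Ccr7 and the scavenging receptors, 3 were matched and tested. They are the 3 near-identical copies above, which may be 1 signal, and 0 of 3 were called in limma. Ccl21c was lower at an unadjusted p under 0.05, as were 2.69% of all tested probes. Ccr7, the receptor, and Ccl19, its other ligand, were not analysed here. Of 14 homeostatic chemokines and receptors 1 was matched, Ccl28, a ligand of CCR3 and CCR10 made mainly by mucosal epithelium. Ccl28 was dim, well above background on 3 control and 4 knockout arrays. Its relative log2 level was -3.39, -2.38, -1.57 and -1.95 in control hearts and -1.53, -3.66, -2.71 and -1.49 in knockout hearts. The groups overlap widely, with a log2 difference of -0.03, an SE of 0.57 and a limma adjusted p of 0.994. The 32 inflammatory chemokines and receptors and the 8 listed genes beside the copies had 0 matches.

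The other tested genes with a name that the RefSeq table puts on chromosome 4 are Gm13305, Gm21953, Fam205a2 and Dhrsx, and the first 3 of them were chosen after their values were seen. Gm13305 was 6.14 ± 0.06 (SD, n = 4) in control and 6.12 ± 0.15 (SD, n = 4) in knockout hearts, with a difference of -0.02 and a limma adjusted p of 0.969. Gm21953 was 2.05 ± 0.09 (SD, n = 4) and 2.00 ± 0.23 (SD, n = 4), with a difference of -0.05 and an adjusted p of 0.923. Fam205a2 was well above background on 1 control and 4 knockout arrays, so no difference is given for it. The values of Dhrsx stand with the genes of like pattern, and no test compared these genes with the copies.

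In the authors' deposited table of log2 values, Ccl21b was 13.99, 13.20, 13.79 and 13.85 in control hearts and 13.50, 13.48, 13.54 and 13.44 in knockout hearts. Ccl21c was 14.18, 13.55, 13.90 and 14.07 in control and 13.72, 13.58, 13.59 and 13.51 in knockout hearts. The same control heart was low, and fitted on that table the differences were -0.22 for Ccl21b and -0.32 for Ccl21c, with limma adjusted p of 0.846 and 0.824.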

How the data were processed

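Total RNA from 8 whole hearts was depleted of ribosomal RNA and amplified with random primers, and the Cy3-labelled cRNA was read on Agilent arrays in 1 colour, per the labels' protocols. The authors deposited spot intensity from Agilent Feature Extraction 11.0.1.1, per the submitters' processing notes, with background subtracted per the file headers and no scaling between arrays. Quality flags in the same files mark spots well above background, saturated or outlying. The authors' deposited table holds 21341 probes on a log2 scale with column medians from 7.29 to 7.41, and its columns kept the scanner rank order (lowest Spearman 0.9999967). Its normalization method was not given in sources used here, and its values were not centred per gene.

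Processed intensity was log2 transformed, less the 75th percentile of the array's 59709 non-control probes. Control spots, outlier-flagged spots and 20 probes named as negative controls (1200 spots) were left out, and repeated spots averaged. Tested probes had 3 or more usable arrays in each group and were well above background on all usable arrays of 1 group or both, a filter that both members passed. The comparison used limma 3.58.1 (R 4.3.3), and p-values were adjusted by Benjamini-Hochberg over 27878 probes. The fit was tested on simulated data before use. Each array is 1 mouse, so the limma p-values set a group difference against the spread between mice, moderated over all tested probes. The number of arrays limits the precision.

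RefSeq accessions stood beside 123 probes, and 116 matched 112 symbols through the RefSeq table of GRCm38.p6. The files name build mm9, so probe positions are not given. Members and gene lists were chosen with earlier results of these data known. Named genes are the members, measured genes of the lists, and the 5 named genes most correlated with the mean of the members. Gm13304 under other settings, the tests between copies and the other genes of chromosome 4 and the overlap before scaling were added after seeing the data. Alternatives were normexp (offset 50, on the median signal, in place of the mean signal), other scalings, filters, variance models, array weights, kept flags, raised dim values, the authors' table, an exact test, a replicate block and leaving out each array. All arrays shared 1 scan time. Same-numbered hearts, which share the second part of the barcode, had correlations of deviations of 0.06, -0.05, 0.36 and 0.24. Replicate numbers were not taken as pairs in the main fit. The replicate block among the alternatives is also a block on that part of the code.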

Additional observations from a re-analysis of the deposited data

Results flagged for a closer look

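Of 20 groups of 4 hearts examined for the genes named above, 1 held a heart whose gap to the nearest of the others, as a share of the group's range, was above Dixon's 95% critical value for 4 values, and chance alone gives about 1. The heart above that value was knockout replicate 3 for Dhrsx, with a share of 0.837, at 3.37 on the relative log2 scale against 3.55 to 3.59 in the other knockout hearts. For control replicate 2 the share was 0.797 for Ccl21b, 0.598 for Ccl21c and 0.680 for Gm13304, large but below the critical value.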

How the results depend on the processing

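Over 22 alternatives each, the log2 difference ran from -0.40 to -0.16 for Ccl21b and from -0.46 to -0.26 for Ccl21c, negative in all 22. Alternatives that changed only the filter, dim values, block, variance model or test left the difference as in the main fit, so their sign adds nothing. Of the limma adjusted p-values 0 were under 0.05 (0.375 to 0.865 and 0.377 to 0.824), and the exact test has none. The unadjusted p was under 0.05 in 1 of 22 for Ccl21b and in 8 of 22 for Ccl21c. Gm13304 ran from -0.47 to -0.22 over 21 alternatives, chosen after seeing the data, with adjusted p from 0.380 to 0.838. The mean of the members ran from -0.43 to -0.21, and the correlation of Ccl21b with Ccl21c from 0.849 to 0.952. Of the counts of called probes, 39 with all hearts, that of a fit on probes above background on every array was 11 (11 higher, 0 lower), with fewer probes tested, and that of an ordinary pooled test was 25 (24 higher, 1 lower), and the cause was not tested. Leaving out 1 heart gave 28 to 79 calls, with 79 without control replicate 1 and 73 without knockout replicate 4. Under the replicate block there were 34 calls (30 higher, 4 lower), 24 of them among the 39, and the members stayed uncalled at -0.24 (adjusted p 0.599) and -0.34 (adjusted p 0.473). In 3 of 4 control hearts the closest knockout heart had the same number. With 4 hearts per group the 95% interval of Ccl21b still spans folds from 0.655 to 1.095.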

Other observations

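After Gm13304, the probes nearest to the mean of Ccl21b and Ccl21c over the 8 hearts carried vendor names without a gene. ASMM9PARTA010422 had r = 0.961 with a log2 difference of -0.14 (limma adjusted p 0.729). ASMM9PARTA011325 had r = 0.960 with a difference of -0.38 (adjusted p 0.672).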
